A study of Homo sapiens with 7 samples.

Results

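The 10 genes described here store, import and release iron, or control the mRNAs that do so, in HCT116 cells, an established human colorectal carcinoma line. They are FTH1, FTL, TFRC, IREB2, ACO1, HMOX1, PCBP1, PCBP2, NCOA4 and ISCU, chosen by symbol for these roles, and each has 1 of the 20072 gene rows deposited. All 10 passed the filter of 1 RPKM in at least 1 parameter, as did 14305 genes in all. Log-phase cells, for which the labels name no treatment, were compared across 3 parameters, and no cells with added or withheld iron were among the libraries. TR is the transcription rate from 2 GRO-seq libraries, which read RNA extended by engaged polymerases in isolated nuclei. RA is the mRNA abundance from 3 RNA-seq libraries. TA is the translation activity from 2 polysome profiling libraries, which read mRNA from the polysomal fractions of a sucrose gradient, from cells given cycloheximide. The cells grew in a serum-free medium supplied with EGF, insulin and transferrin, the plasma protein that carries iron, and all 3 parameters share this condition and this single line.

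Ferritin is a shell built from heavy chains (FTH1) and light chains (FTL) that holds iron as a mineral, and the transferrin receptor TFRC brings iron-loaded transferrin into the cell. When free iron is low, the iron regulatory proteins encoded by ACO1 and IREB2 bind a hairpin in mRNAs, the iron-responsive element (IRE). Binding near the start of a ferritin mRNA blocks its translation, and binding in the 3′ UTR of TFRC mRNA protects it from decay. When iron is plentiful, ACO1 takes up an iron-sulfur cluster and acts as an aconitase, and IREB2 protein is degraded. The text below refers to this as background only, since neither iron nor protein was measured.

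The sequences that define this control are shown first, because only ferritin and TFRC among the 10 genes carry them in a UTR of the canonical mRNA. The letters searched were C, any 5 bases, the loop CAGTGN and 5 bases that pair with the 5 bases before the loop, with G-U pairs allowed, on the mRNA strand. In the sequences, from GENCODE transcripts on GRCh37 (hg19), capitals mark the bulged C and the loop, and each run of 29 bases equals the genome at the position given. FTH1 and FTL each held 1 match, in the exonic 5′ UTR:
FTH1, chr11:61735046-61735074, minus strand: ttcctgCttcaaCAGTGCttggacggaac
FTL, chr19:49468592-49468620, plus strand: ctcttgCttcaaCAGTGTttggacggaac
TFRC held 4 matches, all in the exonic 3′ UTR:
TFRC site 1, chr3:195777850-195777878, minus strand: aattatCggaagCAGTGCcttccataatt
TFRC site 2, chr3:195777446-195777474, minus strand: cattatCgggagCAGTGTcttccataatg
TFRC site 3, chr3:195777381-195777409, minus strand: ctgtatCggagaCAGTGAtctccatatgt
TFRC site 4, chr3:195777334-195777362, minus strand: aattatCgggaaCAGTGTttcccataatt

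The ferritin sites share their upper stem and the bases after the loop, whereas the TFRC sites carry mostly A and T before the bulged C. The same letters occurred in the 5′ UTR of 18 of 19894 canonical mRNAs (0.0905%) and in the 3′ UTR of 123 (0.618%). IREB2, ACO1, HMOX1, PCBP1, PCBP2, NCOA4 and ISCU held no match, which says only that these letters are not in their canonical mRNAs. A match is a description of the letters and does not show that the site was bound in these cells.

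Depth ranged from 3391897 to 5629982 reads in TR, from 20299018 to 22532134 in RA and from 22421062 to 30805391 in TA, worked out from the RPKM steps, so the same RPKM rests on the fewest reads in TR. For the 10 genes the lowest read count was 70, for HMOX1 in TR, and counting error alone was 0.501% to 11.95% of a value. It does not cover the spread between libraries. The 5 epithelial markers EPCAM, KRT8, KRT18, KRT19 and CDH1 had mean RPKM of 24.1 to 617 in TR, 47.1 to 977 in RA and 52.1 to 2276 in TA. The 9 markers of other cell types summed to 29.4, 11.8 and 4.07 RPKM, of which COL1A1 made up most in each parameter, and 1, 1 and 3 of the 9 were listed at 0 in all libraries of TR, RA and TA.

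The ferritin genes had the highest mean RPKM of the 10 in every parameter. FTL had 340 and 435 RPKM in TR, 891, 2029 and 1091 in RA, and 490 and 573 in TA. FTH1 had 326 and 299 RPKM in TR, 960, 1009 and 904 in RA, and 283 and 554 in TA. Thus RA lay above both other parameters in every library for both chains, and the spread was widest for FTL in RA, where replicate 2 stood apart, and for FTH1 in TA. By mean RPKM among the 14305 genes, FTL ranked 37 in TR, 12 in RA and 75 in TA. FTH1 ranked 60, 28 and 115. Summed over both chains, ferritin had 666 and 734 RPKM in TR, 1850, 3038 and 1994 in RA, and 772 and 1126 in TA.

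**Figure D1:**
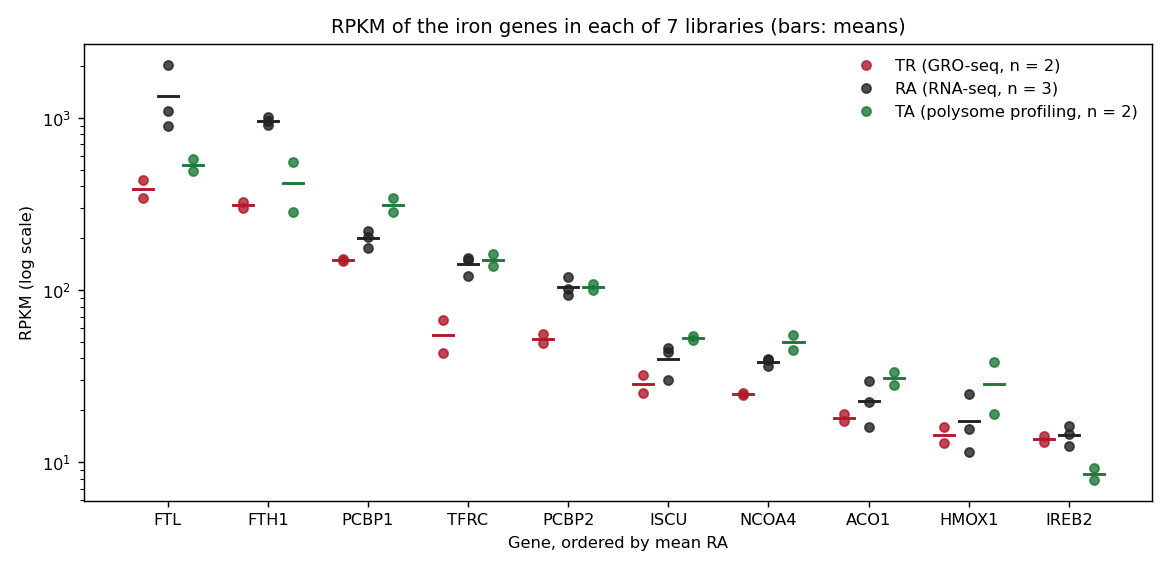
RPKM on a log scale (y) of the 10 genes (x, ordered by mean RA) in each of 7 libraries, with points for libraries and bars for means. The 2 ferritin genes sit at the top, with RA above TR and TA, and IREB2 at the bottom, with TA below TR and RA.

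In order of mean RA, FTL (1337 ± 608 RPKM, SD, n = 3) and FTH1 (957 ± 52.7, n = 3) were neighbours whose libraries overlapped. PCBP1 (199 ± 21.98), TFRC (141 ± 18.1) and PCBP2 (105 ± 13.1) followed without overlap between neighbours. ISCU (39.9 ± 8.63) and NCOA4 (38.4 ± 1.76) overlapped each other, as did ACO1 (22.7 ± 6.74), HMOX1 (17.3 ± 6.87) and IREB2 (14.4 ± 1.87). FTL and FTH1 led TR too, with 387 ± 66.7 and 313 ± 18.8 RPKM (n = 2), and TA, with 531 ± 58.5 and 418 ± 192 RPKM (n = 2).

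The comparison of RA with TR asks how abundant an mRNA is for its rate of transcription. The stability index, log2(RA/TR), was positive for all 10 genes and above the median of all genes for all 10. By limma on log2(RPKM + 0.1), with Benjamini-Hochberg adjustment over all 14305 genes and a threshold of 0.05, RA was higher than TR for FTH1, FTL, TFRC, PCBP2 and NCOA4, which makes 5 of 10, against 67.2% of all genes called, 19.2% higher and 48% lower. No log2 ratio of the 10 was negative. Their median log2 ratio was 0.54, with a range of 0.08 to 1.70, against a median of -0.58 over all genes. Part of this gap goes with genes of low RPKM. All 10 genes had at least 1 RPKM in each parameter. Over the 10825 genes that did, the median was -0.17, with 2632 higher and 3656 lower.

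FTH1 showed a log2 ratio of 1.61 ± 0.35 (SE), a 3.06-fold higher RA, with adjusted p = 0.0036 by limma. FTL showed 1.70 ± 0.42, a 3.26-fold higher RA, with adjusted p = 0.0070. Both were higher in 6 of 6 pairs of libraries, and their indices, 1.61 and 1.79, lay at the 95.1 and 96.5 percentiles of the 13789 genes with an index. Without TR replicate 1, the ratio of FTL was 1.53 with adjusted p = 0.083. Without any 1 library the ratio of FTH1 stayed between 1.55 and 1.68.

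The exons of FTH1 are overlapped over 73.2% of their length by BEST1, which is annotated on the other strand and encodes a chloride channel. BEST1 had 127 and 116 RPKM in TR but 0.160, 2.17 and 0.417 in RA and 0.989 and 0.343 in TA. The strand setting of the counting is not given in the sources used here, so reads of FTH1 and BEST1 cannot be told apart by strand, and the part of such reads in the TR of FTH1 was not tested. Processed copies are a second limit. The annotation names 25 pseudogenes after FTH1 and 16 after FTL, and of the copies with a row here FTH1P3 had a mean of 9.20 RPKM in TR, 1.36 in RA and 0.561 in TA, while FTH1P18, FTLP10 and FTHL17 were listed at 0. FTMT, mitochondrial ferritin, had 0.203 RPKM in 1 TR library and was listed at 0 in the other libraries.

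TFRC, the import receptor, had 66.5 and 42.9 RPKM in TR, 148, 120 and 154 in RA, and 139 and 161 in TA. RA and TA overlapped, and both lay above TR. RA was 2.62-fold higher than TR (log2 ratio 1.39 ± 0.24, adjusted p = 0.0011 by limma, 6 of 6 pairs of libraries), at the 92.8 percentile of stability indices. All 15 alternative settings kept this call.

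Among the other genes whose RA was higher than TR, PCBP2 and NCOA4 act on ferritin protein. PCBP1 and PCBP2 are RNA-binding proteins that also deliver iron to ferritin, and NCOA4 is the receptor that takes ferritin to the lysosome so that its iron is released. PCBP2 had 55.2 and 48.9 RPKM in TR, 93.7, 119 and 101 in RA, and 108 and 100.3 in TA. NCOA4 had 25.2 and 24.7 RPKM in TR, 36.4, 39.7 and 39.1 in RA, and 54.6 and 45.0 in TA. The TR libraries of both genes lay below all RA and TA libraries, and RA and TA overlapped for PCBP2 alone. RA was 2.002-fold higher than TR for PCBP2 (log2 ratio 1.002 ± 0.18, adjusted p = 0.0014 by limma) and 1.53-fold higher for NCOA4 (0.62 ± 0.16, adjusted p = 0.0088). Of the exons of PCBP2, 74.6% are overlapped by other genes, among them MAP3K12 on the other strand, which had 64.0 RPKM in TR, 7.68 in RA and 5.53 in TA as means.

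The remaining 5 genes did not pass the test between RA and TR. PCBP1, a single-exon gene, had 148 and 150 RPKM in TR and 202, 176 and 219 in RA, and its groups did not overlap (log2 ratio 0.41 ± 0.21, adjusted p = 0.12 by limma). The antisense gene PCBP1-AS1 is annotated over 73.2% of its exon. For ISCU, the scaffold on which iron-sulfur clusters are built, TR was 25.1 and 32.1 RPKM and RA was 30.1, 46.3 and 43.4, with overlap (0.47 ± 0.22, adjusted p = 0.098). Without RA replicate 1, which was the lowest, the ISCU ratio was 0.66 with adjusted p = 0.014. The log2 ratios of ACO1, HMOX1 and IREB2 were 0.28 ± 0.25, 0.19 ± 0.38 and 0.08 ± 0.19. Their adjusted p-values were 0.36, 0.67 and 0.73, and the 95% interval of IREB2 ran from -0.35 to 0.51. TR and RA libraries did not overlap for 6 of the 10 genes, all higher in RA, against 79.2% of all genes, 24.3% higher and 54.9% lower.

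**Figure D2:**
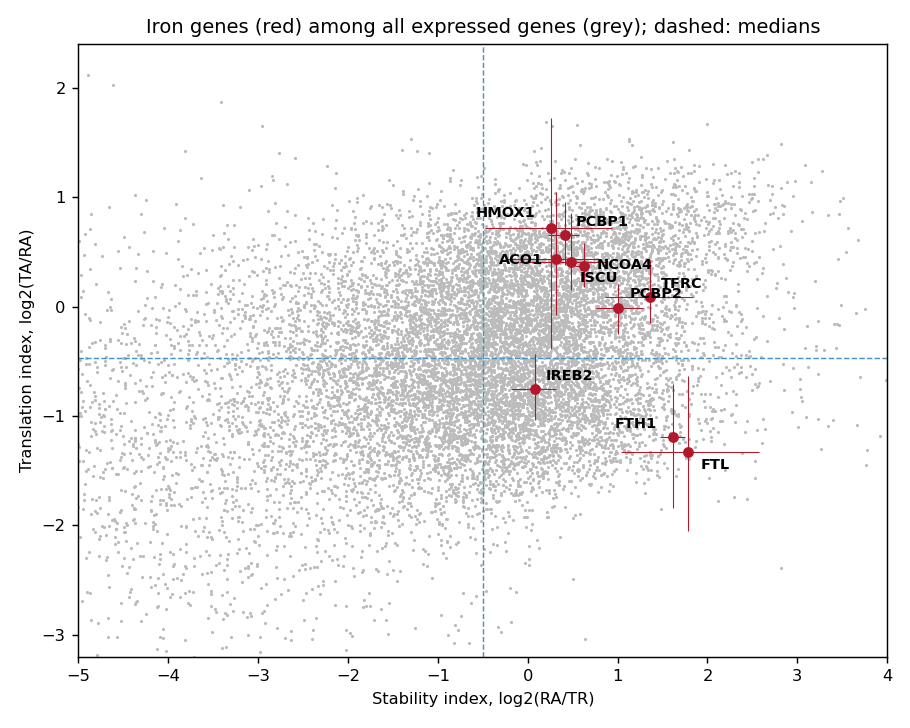
Stability index, log2(RA/TR) (x), and translation index, log2(TA/RA) (y), from mean RPKM, with the 10 genes in red over all expressed genes in grey inside the axis limits, lines from the lowest to the highest pair of libraries, and medians of all genes dashed. FTH1 and FTL combine indices of 1.61 and 1.79 on the x axis with -1.19 and -1.33 on the y axis. RA enters both axes.

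The comparison of TA with RA asks how large the share of an mRNA in the polysomal fractions is for its share of all mRNA. TA was lower than RA for FTH1, FTL and IREB2 and higher for PCBP1 by limma, which makes 3 and 1 of 10 against 29.2% and 6.66% of all genes, or 35.8% in either direction. The median log2 ratio of the 10 genes was 0.23, with a range of -1.27 to 0.70, against -0.37 over all genes, and 7 of 10 had a translation index above the median. The indices share RA, so a high RA in 1 library raises the stability index and lowers the translation index of the same gene.

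FTH1 had a TA/RA log2 ratio of -1.27 ± 0.35, that is, a 2.42-fold lower TA, with adjusted p = 0.025 by limma. FTL had -1.24 ± 0.42, a 2.37-fold lower TA, with adjusted p = 0.0499, just under the threshold. TA was lower in 6 of 6 pairs of libraries for both chains, and the ratio was negative for both in all 15 alternatives. The call was less firm than the direction. It was kept in 7 of 15 alternatives for FTH1, where adjusted p ranged from 0.014 to 0.22, and in 4 of 15 for FTL, where it ranged from 0.025 to 0.23. Of single libraries, TR replicate 1, TR replicate 2, RA replicate 3 and TA replicate 1 each ended the call of FTH1 when left out (adjusted p = 0.065, 0.064, 0.060 and 0.22), and the ratio without TA replicate 1 was -0.79. The call of FTL was lost without any 1 of the libraries except RA replicate 1, with adjusted p from 0.061 without RA replicate 2 to 0.23 without TA replicate 1. The translation indices from means, -1.19 and -1.33, lay at the 19.9 and 15.6 percentiles of all genes.

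IREB2, the regulator without an enzyme activity, had 14.2 and 13.0 RPKM in TR, 16.2, 12.5 and 14.6 in RA, and 9.22 and 7.88 in TA. Both TA libraries lay below all 5 other libraries. TA was 1.67-fold lower than RA (log2 ratio -0.74 ± 0.19, adjusted p = 0.019 by limma, lower in 6 of 6 pairs). Without RA replicate 3, TA replicate 1 or TA replicate 2 the adjusted p was 0.062, 0.057 and 0.097, with ratios of -0.73, -0.85 and -0.63. Relative to the median of all genes the ratio of IREB2 was -0.37, against -0.90 for FTH1 and -0.87 for FTL, and its translation index lay at the 37.4 percentile.

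ACO1, the regulator that doubles as cytosolic aconitase, had 17.3 and 19.0 RPKM in TR, 29.6, 16.1 and 22.3 in RA, and 28.0 and 33.2 in TA. The RA libraries overlapped those of both other parameters, and TA lay above TR. The TA/RA log2 ratio was 0.47 ± 0.25 (adjusted p = 0.18 by limma). Without RA replicate 1 it was 0.68 with adjusted p = 0.041.

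PCBP1 had 285 and 341 RPKM in TA, above all 3 RA libraries, a 1.57-fold difference (log2 ratio 0.65 ± 0.21, adjusted p = 0.045 by limma). The call was lost without any 1 library, with adjusted p of 0.054 without RA replicate 1 at the lowest and 0.21 without TA replicate 2 at the highest, and the ratio stayed between 0.52 and 0.78. For its relative PCBP2 the ratio was 0.00 ± 0.18, with a 95% interval of -0.42 to 0.42. TFRC showed 0.09 ± 0.24, with a 95% interval of -0.46 to 0.65, and its sign changed when RA replicate 2 or TA replicate 2 was left out (-0.017 and -0.016).

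HMOX1, which splits heme and so frees its iron, had 13.0 and 16.0 RPKM in TR, 15.6, 24.9 and 11.5 in RA, and 37.9 and 19.0 in TA. TA replicate 1 alone lay above all RA libraries, and TA replicate 2 lay within their range. The TA/RA log2 ratio was 0.70 ± 0.38 (adjusted p = 0.18 by limma), at the 93.7 percentile of translation indices, and it was 0.998 with adjusted p = 0.0497 without RA replicate 2. ISCU had 54.4 and 51.5 RPKM in TA, above all RA libraries (0.43 ± 0.22, adjusted p = 0.17). NCOA4 likewise lay above RA in both TA libraries (0.37 ± 0.16, adjusted p = 0.10). TA and RA libraries did not overlap for 6 of the 10 genes, 3 in each direction, against 58.2% of all genes, 14.4% higher and 43.8% lower.

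**Figure D3:**
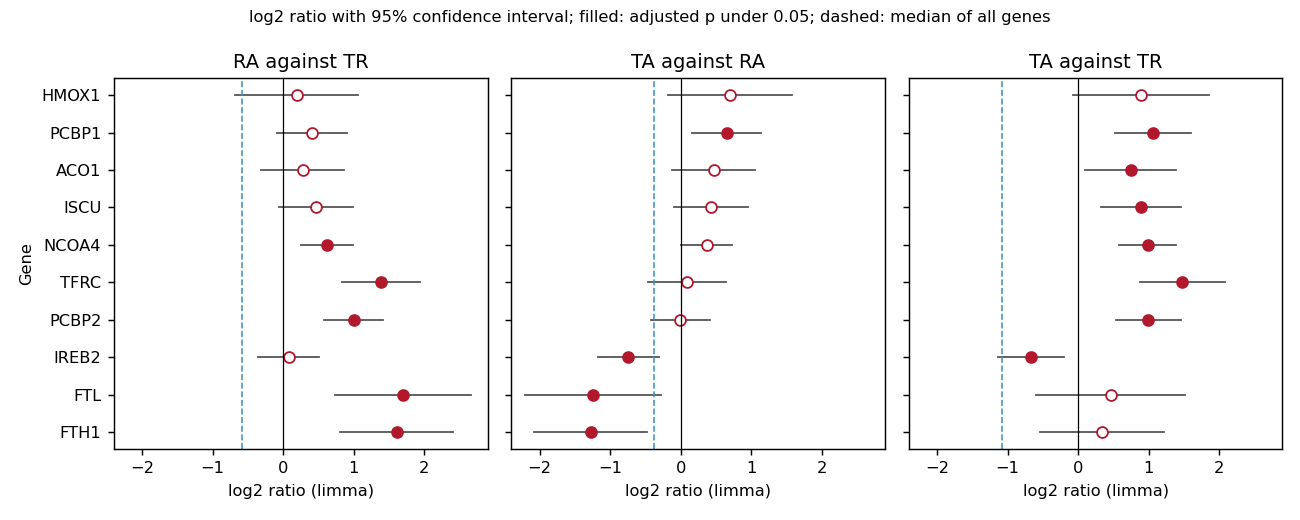
limma log2 ratios (x) of the 10 genes (y, ordered by TA against RA) in 3 comparisons, with lines for 95% confidence intervals, filled points for adjusted p under 0.05, and the median of all genes dashed. Between RA and TR all points lie above 0, whereas between TA and RA the ferritin genes and IREB2 lie below 0 and below the median of -0.37.

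Between the ends of the path, TA was higher than TR for TFRC, PCBP1, PCBP2, NCOA4, ISCU and ACO1 and lower for IREB2 by limma, that is, 6 and 1 of 10 against 17% and 57.5% of all genes, or 74.6% in either direction. The libraries of TA and TR did not overlap for 9 of the 10, of which IREB2 alone was lower, against 88.2% of all genes, 22.7% higher and 65.5% lower. TFRC was 2.79-fold higher (log2 ratio 1.48 ± 0.26, adjusted p = 0.0010), and NCOA4 1.98-fold (0.99 ± 0.17, adjusted p = 0.0010). PCBP1 was 2.09-fold higher (adjusted p = 0.0033), PCBP2 had a log2 ratio of 0.9997 ± 0.20 (adjusted p = 0.0019), and ISCU was 1.86-fold higher (adjusted p = 0.010). ACO1 was 1.68-fold higher (adjusted p = 0.038), and IREB2 was 1.59-fold lower (log2 ratio -0.67 ± 0.20, adjusted p = 0.017). The regulators ACO1 and IREB2 thus lay on opposite sides of 0. Without TR replicate 1 adjusted p was 0.18 for ACO1, 0.087 for ISCU and 0.076 for IREB2, and without TA replicate 2 it was 0.15 for ACO1 and 0.087 for IREB2. ACO1 also lost its call without TR replicate 2, RA replicate 3 or TA replicate 1 (adjusted p = 0.12, 0.062 and 0.064).

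FTH1 and FTL did not pass the test between TA and TR. Their log2 ratios were 0.34 ± 0.38, with a 95% interval of -0.54 to 1.22, and 0.46 ± 0.46, with an interval of -0.59 to 1.52. For FTH1 the TA libraries lay on either side of the TR libraries, and the ratio was -0.14 without TA replicate 2. HMOX1 had 0.89 ± 0.41 (adjusted p = 0.082), and adjusted p was 0.037 without RA replicate 2 and 0.023 without TA replicate 2.

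RPKM is a share of each library, so a ratio between parameters is relative to the other genes. Centring each library on its median added 0.67 to every RA/TR ratio, 0.50 to TA/RA and 1.17 to TA/TR. The calls over all genes then moved from 2743 higher and 6870 lower to 5066 and 4814 between RA and TR, from 953 and 4173 to 2713 and 1404 between TA and RA, and from 2439 and 8231 to 5436 and 5044 between TA and TR. Of the 10 genes, 9 were then higher in RA than in TR. Between TA and RA, ACO1, ISCU, NCOA4 and PCBP1 were higher, and the centred ratios of FTH1, FTL and IREB2 were -0.77, -0.74 and -0.24, still negative but not past the threshold (adjusted p = 0.12, 0.22 and 0.36). Between TA and TR, 9 were higher, FTH1 (1.51) and FTL (1.64) among them, and IREB2 turned to 0.51 with adjusted p = 0.055.

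Ratios between 2 genes of the same library do not change with such scaling. Each of 5 pairs was compared over the 3 parameters by an exact permutation test on log2 ratios, whose smallest possible p is 0.00952 over 210 arrangements. None passed 0.05 after Benjamini-Hochberg adjustment over the 5 pairs, and 3 of 5 did before it. FTH1/FTL was 0.958 and 0.689 in TR, 1.08, 0.497 and 0.829 in RA, and 0.577 and 0.967 in TA. The heavy and light chains thus kept overlapping ratios in all parameters (exact p = 0.98, adjusted 0.98).

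TFRC/FTH1 sets import against storage. It was 0.204 and 0.143 in TR, 0.155, 0.119 and 0.170 in RA, and 0.490 and 0.291 in TA. Both TA libraries lay above all others, with a geometric mean of 0.378 against 0.146 in RA, a 2.58-fold difference (exact p = 0.048, adjusted 0.079). NCOA4/FTH1, ferritin's lysosomal receptor against its heavy chain, was 0.0773 and 0.0825 in TR, 0.0379, 0.0393 and 0.0433 in RA, and 0.193 and 0.0812 in TA. All RA libraries lay below the rest (exact p = 0.019, adjusted 0.079).

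IREB2/ACO1 compares the regulators. It was 0.821 and 0.684 in TR, 0.547, 0.774 and 0.655 in RA, and 0.329 and 0.237 in TA. Both TA libraries lay below all others, with a geometric mean of 0.279 against 0.652 in RA (exact p = 0.038, adjusted 0.079). PCBP1/PCBP2 had geometric means of 2.87 in TR, 1.90 in RA and 2.999 in TA (exact p = 0.086, adjusted 0.11), and its RA libraries lay below TR and TA without overlap.

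**Figure D4:**
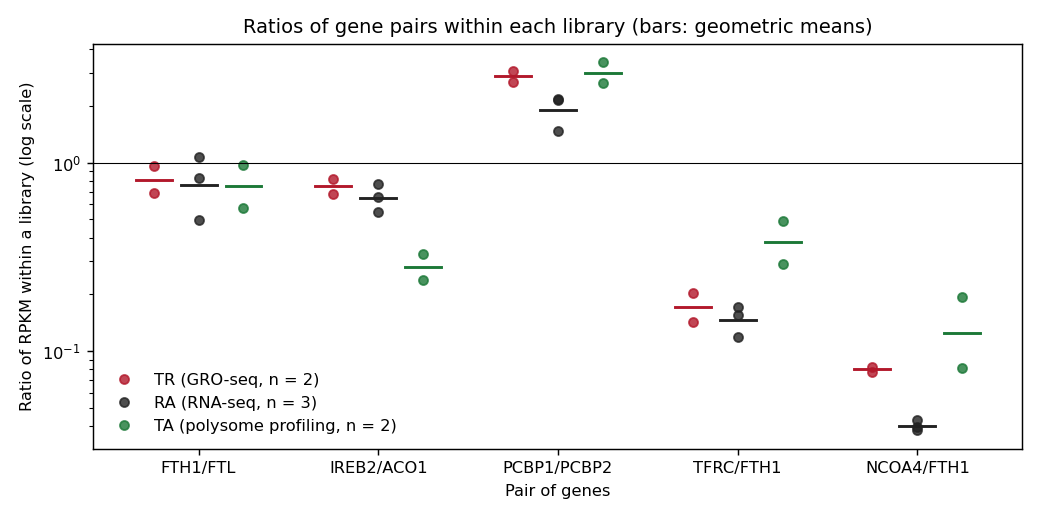
Ratio of the RPKM of 2 genes within each library on a log scale (y) for 5 pairs (x), with points for libraries and bars for geometric means. TFRC/FTH1 is highest and IREB2/ACO1 lowest in both TA libraries, while FTH1/FTL overlaps in all 3 parameters.

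The structure of the mRNAs did not set the 10 genes apart in UTR proportion. UTRs made up 54.4% of the canonical mRNA of FTH1 (1203 bases, 4 exons), 39.7% of FTL (871 bases, 4 exons) and 54.5% of TFRC (5012 bases, 19 exons). The others ranged from 38.2% in PCBP1 to 65.6% in PCBP2, and all 10 lay within the quartiles of 13103 expressed genes (30.1% to 67.7%, median 49.6%). These shares hold for canonical mRNAs, and the gene models behind the RPKM can differ. The smallest exon length that gave whole reads was 3620 bases for ACO1 and 2411 for ISCU. Their canonical mRNAs have 7443 and 983 bases. On GRCh37 the genes lie at chr11:61727190-61735106 (FTH1, minus strand), chr19:49468566-49470136 (FTL, plus) and chr3:195739382-195809024 (TFRC, minus). IREB2 lies at chr15:78729773-78793795, ACO1 at chr9:32384601-32454767 and HMOX1 at chr22:35776354-35790207, all on the plus strand. Also on the plus strand, PCBP1 lies at chr2:70314609-70316335, PCBP2 at chr12:53845886-53874946, NCOA4 at chr10:51565199-51590734 and ISCU at chr12:108956358-108963144.

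The genes whose 7-library profile was most like that of FTH1 were taken by Euclidean distance between log2(RPKM + 0.1) values centred per gene, over the 10825 genes that reached 1 RPKM in TR, RA and TA. They were METTL9 (distance 0.282), HMGN4 (0.343) and ADIPOR1 (0.404), and FTL was the 293rd of the 10825 (1.02). The distance includes the scatter between replicates of a gene. For FTL they were RPS14 (0.452), RPLP0 (0.586) and UBE2J1 (0.618), with FTH1 at rank 115. For TFRC they were TMX1 (0.249), TMEM30A (0.270) and HSD17B12 (0.278), with FTH1 at rank 3147. RPS14 and RPLP0 encode ribosomal proteins.

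Of a wider list of 87 other genes of iron handling, 78 were tested. Between RA and TR 28 were higher and 28 lower by limma (median log2 ratio -0.03), against 19.2% and 48% of all genes and a median of -0.58. Between TA and RA 7 were higher and 15 lower (median -0.14), against 6.66% and 29.2% of all genes and a median of -0.37. Between TA and TR 26 were higher and 34 lower (median -0.35), against 17% and 57.5% of all genes and a median of -1.08. Part of each gap goes with genes of low RPKM. With at least 1 RPKM in each parameter, the list medians were -0.01 (RA/TR), -0.15 (TA/RA) and -0.26 (TA/TR). Those of all genes were then -0.17, -0.28 and -0.51. With each library centred on its median, the counts became 42 higher and 16 lower between RA and TR, 25 and 3 between TA and RA, and 44 and 15 between TA and TR. The TA/RA counts also moved with single libraries, to 2 higher and 4 lower without TA replicate 1. Without RA replicate 3 they were 2 and 9, without TA replicate 2 they were 4 and 9, and without either TR library 4 were higher. The IRE letters were also found in the 5′ UTR of ALAS2 and SLC40A1 and in the 3′ UTR of CDC14A and TF. SLC40A1, the iron exporter, and TF, transferrin itself, had under 1 RPKM in each parameter and were not tested. CDC14A, a phosphatase, was lower in TA than in RA (-0.98 ± 0.25, adjusted p = 0.019) and in RA than in TR (-0.86 ± 0.25, adjusted p = 0.015).

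Of the 14 tested genes of a list on IREs and IRP control, 5 were lower in TA than in RA, against 29.2% of all genes, and the median was -0.45 against -0.37. Both values lie near those of all genes. The list also holds BACH1, NFE2L2, GLRX3, PCBP3 and PCBP4, for which neither an IRE nor a role in IRP control is claimed here. The 5 genes were CDC42BPA (-1.41, adjusted p = 0.0032), BACH1 (-1.05, 0.0089), CDC14A, HERC2 (-0.89, 0.035) and PCBP4 (-0.56, 0.029). CDC42BPA is a kinase and BACH1 is the heme-sensing repressor of HMOX1. FBXL5, the iron sensor through which IREB2 protein is degraded, had 13.6 and 13.2 RPKM in TR, 8.79, 13.9 and 12.9 in RA, and 7.68 and 7.07 in TA (TA/RA -0.65 ± 0.23, adjusted p = 0.056). Both TA libraries of FBXL5 lay below all RA libraries, as for IREB2 and for 43.8% of all genes. In RA against TR, 6 of the 14 were higher and 2 lower, against 19.2% and 48% of all genes.

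Of 23 tested iron transport genes, 4 were higher and 12 lower in RA than in TR, with a median of -0.66, close to the 19.2%, 48% and -0.58 of all genes. FLVCR2, TMPRSS6 and CP stood lowest, at -4.69, -4.55 and -4.00, with means of 0.621, 0.501 and 0.0125 RPKM in RA, and the ratio of CP, like that of ALAS2, depends on the pseudocount. SLC25A37, the mitochondrial iron importer, had the lowest TA/RA ratio of the wider list (-1.68 ± 0.19, adjusted p = 0.0026), with 27.4, 35.4 and 36.7 RPKM in RA and 9.61 and 10.8 in TA. Of 14 genes of heme synthesis and breakdown, 7 were higher and 2 lower in RA than in TR (19.2% and 48% of all genes), and 2 higher and 3 lower in TA than in RA (6.66% and 29.2% of all genes). BLVRA, which reduces the biliverdin that HMOX1 makes, was higher in RA than in TR (1.85 ± 0.18, adjusted p = 3.9e-05) and in TA than in RA (0.78 ± 0.18, adjusted p = 0.013). ALAS2, the erythroid heme synthesis enzyme and one of the markers of other cells, had 8.29 and 8.24 RPKM in TR, at most 0.106 RPKM in any RA or TA library, and the lowest RA/TR ratio of the wider list (-5.84 ± 0.37, adjusted p = 3.5e-06).

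The other genes at the ends of the wider list had these log2 ratios. Between RA and TR, TFR2, the second transferrin receptor, was the fifth lowest at -2.65, with means of 23.4 RPKM in TR and 3.68 in RA. The highest ratios there were 1.97 in NDUFAB1, 1.85 in BLVRA, 1.78 in the heme-binding PGRMC1, 1.77 in the ferroxidase HEPH and 1.71 in SKP1, a subunit of the ubiquitin ligase that FBXL5 joins. TFRC, at 1.39, lay below these 5, and FTL, at 1.70, just below SKP1. The place of HEPH is uncertain, since its ratio had an SE of 0.59. HEPH had 0.556 and 0.781 RPKM in TR, from 9 and 21 reads, and 1.68, 1.72 and 5.26 RPKM in RA. Between TA and RA, UROS of the heme pathway had -1.25 and the mitochondrial transporter ABCB10 had -1.10, with FTL at -1.24 between them. The reductase STEAP1 had 0.84 there. Between TA and TR the lowest were ALAS2 (-5.86), TMPRSS6 (-5.59), FLVCR2 (-5.13), CP (-3.97) and NDOR1 (-3.41). The highest were NDUFAB1 (2.76), BLVRA (2.63), HEPH (2.44 ± 0.64, on the same few TR reads), HSPA9 (2.35) and BLVRB (2.15).

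Of 18 genes of mitochondrial iron-sulfur cluster assembly, in which ISCU is the scaffold, 7 were higher and 9 lower in RA than in TR, against 19.2% and 48% of all genes, and 4 higher and 2 lower in TA than in RA, against 6.66% and 29.2%. NFS1, the sulfur donor to that scaffold, was higher in TA than in RA (0.88 ± 0.15, adjusted p = 0.0050), as were HSPA9, a chaperone of the scaffold (1.04 ± 0.29, 0.025), and NDUFAB1 (0.78 ± 0.19, 0.018). ISCA1, a later-acting assembly factor, was lower (-1.17 ± 0.24, 0.0095). Of 9 cytosolic assembly genes, 4 were higher and 3 lower in RA than in TR, and 2 were lower in TA than in RA, beside the same shares of all genes.

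**Figure D5:**
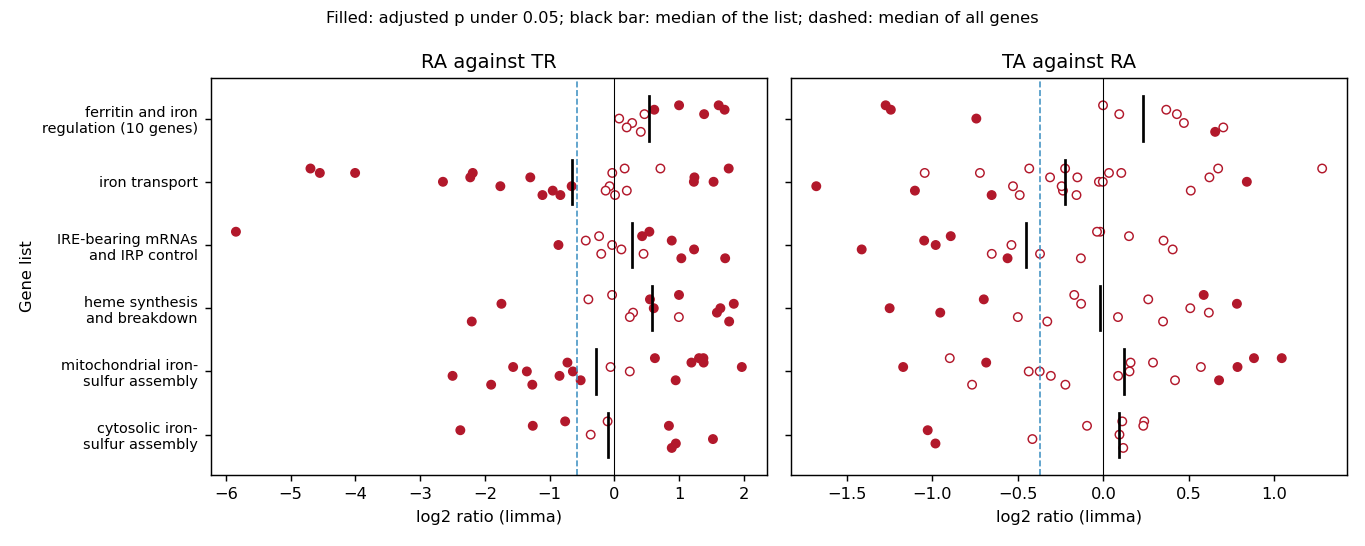
limma log2 ratios (x) of the 10 genes and of the 5 lists of other iron genes (y) between RA and TR and between TA and RA, with filled points for adjusted p under 0.05, black bars for list medians, and the median of all genes dashed. The 10 genes have medians of 0.54 and 0.23, and FTH1 and FTL lie lowest among them between TA and RA.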

How the data were processed

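HCT116 cells were profiled in 7 libraries (2 TR, 3 RA, 2 TA), described as biological replicates, from cells divided among the 3 assays. The authors mapped reads to hg19 with TopHat, counted exonic reads with HTSeq and deposited RPKM per gene and library. CASAVA is named in the submitters' processing notes. The counting mode, strand setting and annotation are not given in the sources used here. Samples were pooled in sequencing lanes, and which of them shared a lane is not named. Read counts were worked out from the RPKM steps (99.9937% of values above 0 whole within 0.01 reads).

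Indices used arithmetic means. Tests used limma 3.58.1 (R 4.3.3) on log2(RPKM + 0.1), fitted to all 7 libraries with the eBayes trend, and fold changes on that scale understate those of low genes. In a simulated RA against TR, limma recovered 200 of 200 genes changed 4-fold and called 30 of 13288 others. Smaller changes and the comparisons with TA were not simulated. The called RA/TR ratios of the genes described here ran from 1.53-fold (NCOA4) to 3.26-fold (FTL), and 67.2% of all genes were called there. The simulated rates therefore do not give the recovery or the false calls of these tests. Gene pairs were tested in Python 3.11.15, and plots used matplotlib 3.10.9. Sites and UTRs came from GENCODE on GRCh37. Genes named from the wider list came from the 5 highest and 5 lowest called in each comparison and those with IRE letters, and others (BACH1, HERC2, PCBP4, FBXL5) were added after their values were seen. Part of the wider list is not reported gene by gene here. The genes and lists were chosen with earlier results of these data known. Alternatives changed the pseudocount, filter, centring, eBayes trend, libraries fitted and replicate block, and left out each replicate.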

Additional observations from a re-analysis of the deposited data

How the results depend on the processing

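The RA/TR calls of FTH1, TFRC and PCBP2 and the TA/TR calls of TFRC, PCBP1, PCBP2 and NCOA4 were kept in all 15 alternatives. With each library centred on its median, calls over all genes were 5066 higher (RA/TR), 2713 higher and 1404 lower (TA/RA), and 5436 higher and 5044 lower (TA/TR), and calls among the 10 genes were 9 higher (RA/TR), 4 higher and 0 lower (TA/RA), and 0 lower (TA/TR), with no gene of the 10 lower at an unadjusted p under 0.05 in either. The centred ratios of IREB2 between TA and TR and of PCBP2 between TA and RA turned to 0.51 and 0.50, by the shift that centring adds. With at least 1 RPKM in each parameter, which tests fewer genes, 3656 (RA/TR) and 4935 (TA/TR) were lower. Without a filter on low values, 1 of the 10 genes was lower in TA than in RA, and with the libraries of RA and TA alone 0 were higher and 1 lower (2 and 3 at an unadjusted p under 0.05). The cause was not tested.

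The cells were divided among the assays, but no source used here says that equal replicate numbers mark parts of the same culture. Deviations of same-numbered libraries correlated at 0.15 (RA and TR), -0.56 (TA and RA) and 0.02 (TA and TR) over 10825 genes. With the replicate block, 109 genes were higher and 1387 lower in TA than in RA, and 0 of the 10 genes passed in either direction (1 higher and 3 lower at an unadjusted p under 0.05). The block gave NCOA4 an adjusted p of 0.060 between RA and TR and ACO1 one of 0.091 between TA and TR, and turned the FTH1/FTL difference between TA and RA from -0.030 to 0.029.

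Leaving out each library in turn gave 198 to 1030 genes higher and 1803 to 4228 lower in TA than in RA, both lowest without TA replicate 1, with 422 and 456 higher without RA replicate 3 and TA replicate 2. Among the 10 genes it gave 0 to 1 higher and 0 to 3 lower between TA and RA, and 0 to 1 lower between TA and TR. Signs turned for FTH1 between TA and TR (range -0.14 without TA replicate 2 to 0.83), TFRC between TA and RA (-0.017 without RA replicate 2 and -0.016 without TA replicate 2, to 0.20), IREB2 between RA and TR (-0.010 without RA replicate 1, to 0.18), HMOX1 between RA and TR (-0.10 without RA replicate 2, to 0.45), and PCBP2 between TA and RA (-0.078 to 0.10, above 0 without RA replicate 2 or TA replicate 2, the latter 0.050). The FTH1/FTL difference between TA and RA ran from -0.40 to 0.34, and was 0.22 and 0.029 without RA replicate 1 and RA replicate 3. With 2 libraries in TR and in TA, a single library can carry a call.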
